A study of Rattus norvegicus with 8 samples.

Results

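The response of cultured rat neurons to CAT-SKL alone is described here, from the 2 of 8 arrays whose labels give CAT-SKL as the only treatment. CAT-SKL is a form of catalase engineered with a peroxisomal targeting signal and used as an antioxidant protein. The cells were primary neurons of cortex and hippocampus from Sprague Dawley rat embryos at E18, kept 7 days in vitro and then given 1 µM CAT-SKL for 24 h. Each array set the Cy5-labelled RNA of a treated culture against Cy3-labelled RNA of vehicle-treated neurons. The rest of the series served only for the spread and for comparison: 2 arrays of neurons given 1 µM ADDL (soluble oligomers of amyloid-beta) for 24 h, and 4 arrays in which 1 agent followed the other, 24 h each, as CAT-SKL+ADDL or ADDL+CAT-SKL, with 2 arrays each. Every one of these groups was set against vehicle in the same way. The cultures are mixed primary cells of 2 brain regions, so a value is an average over all the cell types present.

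Catalase breaks hydrogen peroxide down to water and oxygen inside peroxisomes, the organelles that also oxidise very long fatty acids and make ether lipids. Neurons carry little of it, and hydrogen peroxide formed in them is also removed by glutathione peroxidases and peroxiredoxins in the cytosol and mitochondria. Peroxide acts as a signal as well as a source of damage, among other routes through the transcription factor NRF2, which switches on genes of glutathione and thioredoxin metabolism.

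Each array held 62976 spots, of which 58717 were not control spots and belonged to 30367 probes. The median spot intensity was 111 in Cy5 and 110 in Cy3 on the first CAT-SKL array (CAT-SKL 1), and 105 and 108 on the second (CAT-SKL 2), over local backgrounds between 24 and 28. Between 74.1% and 77.7% of probes were well above background in either channel, and 0 spots were saturated. In the vehicle channel, genes of neurons were well above background on both arrays for 30 of 30 tested presynaptic genes and for 11 of 11 glutamatergic genes. The vehicle cultures also gave such a signal for 20 of 22 astrocyte markers, 14 of 16 oligodendrocyte lineage markers and 15 of 18 microglia markers. Of all 12889 tested genes with a symbol, 11319 had such a signal in vehicle. A tested probe had already passed a filter on signal, so these counts do not by themselves show which cell types are present. No dye was swapped, so for a single probe a dye effect and the effect of CAT-SKL cannot be told apart. The vehicle RNA stands for the control by itself. If it was 1 pool, its own spread is left out of the test against vehicle, and the labels do not say whether it was. Only 2 arrays carry the result, which limits the precision.

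All changes below are log2 of CAT-SKL over vehicle, with the value of CAT-SKL 1 first and of CAT-SKL 2 second. The SE printed with a mean or a difference is the moderated SE of limma, whose spread is shared over all 4 groups. It is not the spread of the 2 CAT-SKL arrays alone, and n counts those arrays. A probe is said to have passed, and its gene to have risen or fallen, where the Benjamini-Hochberg adjusted p of limma over all tested probes was below 0.05. After CAT-SKL, 572 of 25226 tested probes passed, which is 2.27% of them. More probes fell (398, 1.58%) than rose (174, 0.69%). The changes were small: their median absolute size was 0.41, the smallest was 0.25, 84 of the 572 reached 1.5-fold and 4 reached 2-fold. The lowest adjusted p was 0.0158. Of the passing probes, 284 carried a gene symbol, for 275 genes, and 288 did not.

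All 572 passing probes had the same sign on both arrays (100%), against 66.2% of the tested probes. Since a test on 2 arrays favours probes that go one way on both, that share is a description of the calls. The response was larger on CAT-SKL 1 for 428 of the passing probes (74.8%), against 60.1% of all tested probes. The median absolute change of the passing probes was 0.45 on CAT-SKL 1 and 0.35 on CAT-SKL 2, and over all tested probes it was 0.097 and 0.076. Across probes, which are not independent replicates, the arrays correlated at r = 0.554. Over 13221 tested probes with exactly 2 spots, the SD of the difference between the CAT-SKL arrays was 0.164. The noise between spots alone gave 0.0779. CAT-SKL 1 lay closer to the first CAT-SKL+ADDL array (0.109) and to the second ADDL array (0.132) than to CAT-SKL 2, and CAT-SKL 2 lay closest to the first ADDL+CAT-SKL array (0.118). Every one of these ratios has vehicle RNA in its second channel, and the labels do not say whether that RNA was 1 pool.

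**Figure D1:**
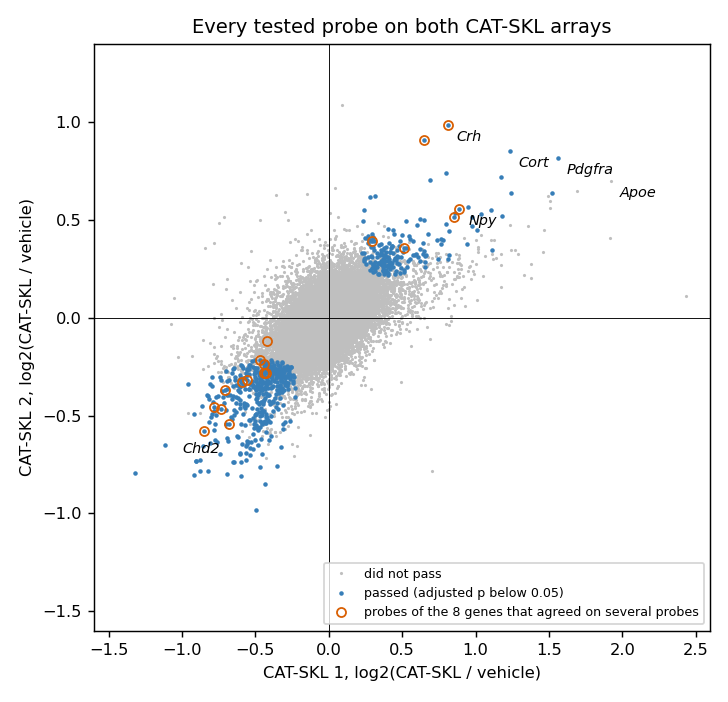
Log2 change of every tested probe on CAT-SKL 1 (x axis) and CAT-SKL 2 (y axis), with passing probes in blue, other probes in grey and the probes of the 8 genes that changed on several probes ringed. The 572 passing probes lie in the lower left and upper right quadrants, Apoe, at 1.92 and 0.70, did not pass, and 1 grey probe at -0.283 and -4.89 lies below the plotted range.

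The array carried several tested probes for 2162 genes, of which 2002 had 2 probes, 137 had 3 and 23 had more, up to 6. A gene was taken to agree where at least 2 of its probes passed in one direction and every probe had that sign on both CAT-SKL arrays. This held for 8 genes (0.37%), of which 3 rose (0.139%) and 5 fell (0.231%). The rising genes were Crh, Npy and Hip1, and the falling genes were Chd2, Lrrc7, Gucy1a2, Lpgat1 and Kcnma1. They have 18 tested probes in all, and 17 of these passed.

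Crh encodes corticotropin-releasing hormone, the peptide that starts the hormonal stress response from the hypothalamus and that a set of cortical and hippocampal interneurons also makes. Its normalised signal, in arbitrary units that include the offset of 50, was 313 in the CAT-SKL channel against 178.5 in the vehicle channel on CAT-SKL 1, and 331 against 167 on CAT-SKL 2. The log2 changes of this probe were 0.81 and 0.99, with a mean of 0.90 ± 0.07 (SE, n = 2, limma adjusted p = 0.0158). The other probe gave 0.65 and 0.91, with a mean of 0.78 ± 0.07 (adjusted p = 0.0192). Both arrays were high on both probes, and here CAT-SKL 2 was the higher of the arrays, unlike most passing probes. Crh also had the lowest adjusted p of all probes.

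Npy encodes neuropeptide Y, a transmitter peptide of many cortical and hippocampal interneurons. Its brighter probe had a signal of 3777 after CAT-SKL against 2038 in vehicle on CAT-SKL 1, and 2766 against 1881 on CAT-SKL 2. The log2 changes were 0.89 and 0.56 (mean 0.72 ± 0.08, SE, n = 2, adjusted p = 0.0192). The dimmer probe, with 852 against 472 and 643 against 450, gave 0.85 and 0.51 (mean 0.68 ± 0.08, adjusted p = 0.0218). On either probe CAT-SKL 1 was higher, and the probes differed from each other by less than the arrays did.

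Hip1 encodes huntingtin-interacting protein 1, an adaptor that links clathrin-coated vesicles to actin. One probe gave 0.51 and 0.36 (mean 0.44 ± 0.08, SE, n = 2, adjusted p = 0.0378) and the other 0.30 and 0.39 (mean 0.34 ± 0.07, adjusted p = 0.0436). The order of the arrays differed between the probes. Hip1 was called neither without CAT-SKL 1 nor without CAT-SKL 2.

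The promoter sequences of Npy and Hip1 are shown as the entry points of 2 of the genes that rose, and as an example of the motif search. They are the 250 bases upstream of the start, 5′ to 3′, from RefSeq on the GRCr8 assembly, in lower case, with a motif match in capitals. The motifs, searched on both strands and both beginning with TGAC, were the cyclic AMP response element TGACGTCA and a core of the antioxidant response element bound by NRF2, TGACNNNGC. The first stood in 531 of 33469 rat promoters of this length (1.59%) and the second in 3373 (10.1%). Of the 8 genes, 6 were matched to promoters, Gucy1a2, Hip1, Kcnma1, Lpgat1, Lrrc7 and Npy. Only Hip1 held a match, to the second motif on the reverse strand, and the other matched genes held neither motif in this window.
Npy, chr4:80211861-80212110, plus strand: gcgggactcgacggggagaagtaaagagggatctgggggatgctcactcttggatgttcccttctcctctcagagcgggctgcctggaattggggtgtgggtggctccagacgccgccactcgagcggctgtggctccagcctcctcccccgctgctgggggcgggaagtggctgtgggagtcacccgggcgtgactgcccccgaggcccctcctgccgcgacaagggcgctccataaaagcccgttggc
Hip1, chr12:26769697-26769946, plus strand: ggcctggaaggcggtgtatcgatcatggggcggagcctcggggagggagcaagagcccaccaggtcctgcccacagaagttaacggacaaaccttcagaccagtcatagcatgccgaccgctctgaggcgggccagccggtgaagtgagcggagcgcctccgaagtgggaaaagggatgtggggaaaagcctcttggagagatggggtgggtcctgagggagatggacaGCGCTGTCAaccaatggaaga

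Chd2, a chromodomain helicase that remodels nucleosomes and is mutated in some childhood epilepsies, fell on 3 probes. The changes were -0.85 and -0.58 on the first probe (mean -0.71 ± 0.08, SE, n = 2, adjusted p = 0.0192), with signals of 275 against 495 on CAT-SKL 1 and 294 against 439 on CAT-SKL 2. They were -0.74 and -0.47 on the second (mean -0.60 ± 0.07, adjusted p = 0.0218) and -0.56 and -0.32 on the third (mean -0.44 ± 0.08, adjusted p = 0.0433). On every probe both arrays lay below vehicle, and CAT-SKL 1 lay lower. The 3 probes differed in size, and their shared sign was part of the rule that picked the gene.

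Lrrc7 encodes densin, a scaffold protein of the postsynaptic density that binds CaM kinase II. It gave -0.78 and -0.46 on one probe (mean -0.62 ± 0.08, SE, n = 2, adjusted p = 0.0218), and -0.59 and -0.33 on the other (mean -0.46 ± 0.07, adjusted p = 0.0354). Kcnma1, the pore-forming subunit of the BK potassium channel that opens with calcium and voltage, fell on 2 of 3 probes. The changes were -0.43 and -0.28 (mean -0.36 ± 0.06, adjusted p = 0.0361) and -0.47 and -0.22 (mean -0.34 ± 0.07, adjusted p = 0.0497). The third Kcnma1 probe gave -0.42 and -0.12 (mean -0.27 ± 0.08, adjusted p = 0.108) and did not pass.

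Gucy1a2 encodes the alpha-2 subunit of soluble guanylate cyclase, the receptor for nitric oxide. Its probes gave -0.68 and -0.54 (mean -0.61 ± 0.06, SE, n = 2, adjusted p = 0.0192) and -0.44 and -0.28 (mean -0.36 ± 0.06, adjusted p = 0.0362). Lpgat1, an acyltransferase of lysophospholipids, gave -0.71 and -0.37 (mean -0.54 ± 0.08, adjusted p = 0.0295) and -0.44 and -0.23 (mean -0.34 ± 0.07, adjusted p = 0.0467). As with Chd2, Lrrc7 and Kcnma1, every probe of these genes was lower on CAT-SKL 1 than on CAT-SKL 2.

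**Figure D2:**
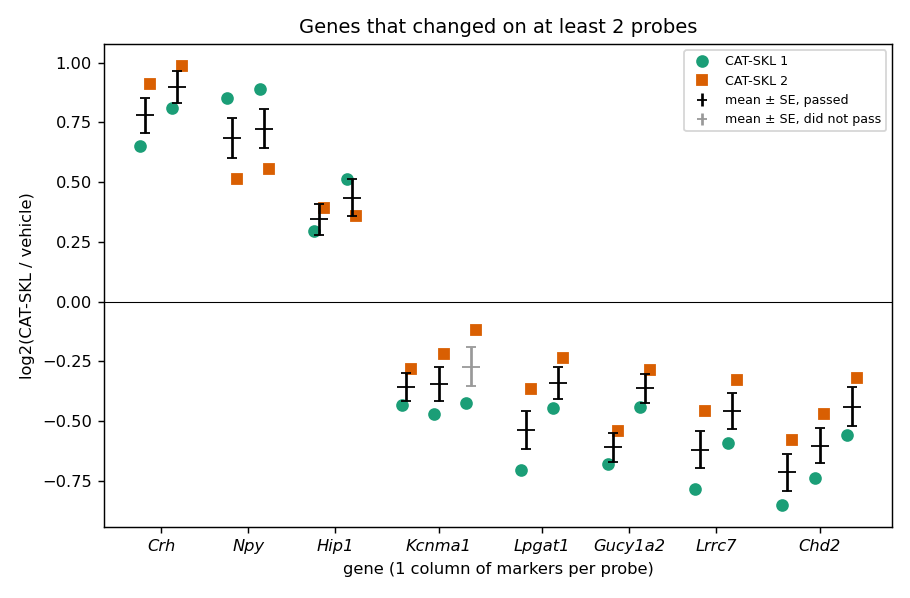
Log2 change of CAT-SKL over vehicle (y axis) for the 18 tested probes of the 8 genes that changed on several probes (x axis, 1 column of markers per probe), with CAT-SKL 1 as circles, CAT-SKL 2 as squares and the mean ± SE as bars. Both arrays lie above 0 for every probe of Crh, Npy and Hip1 and below 0 for every probe of the other 5 genes. The rule that picked the genes requires this shared sign, and the grey Kcnma1 probe did not pass.

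Among the 2162 genes with several probes, 87 had at least 1 passing probe (4.02%). In 44 of these every probe had one sign on both arrays (50.6%), against 25.9% of the 2162, and in 43 the probes or arrays did not share a sign. The 87 genes were picked for a passing probe, and every passing probe had one sign on both arrays, which by itself raises the first share. Besides the 8 genes above, 36 had one sign throughout with only 1 probe passing, 15 of them higher and 21 lower. The largest disagreements between probes of a gene were in Nsd2, Pdpn, Plppr5, Slc25a16 and Zc3h13. Zc3h13, part of the complex that methylates adenosines in RNA, gave -0.63, -0.20 and 0.13 on its 3 probes, and the first alone passed. Plppr5, a membrane protein of growing neurites, gave -0.52 (adjusted p = 0.0336) and 0.21 (adjusted p = 0.113), and the histone methyltransferase gene Nsd2 gave -0.56 and 0.12. The glial membrane glycoprotein gene Pdpn gave 1.08 and 0.33, and Slc25a16, a mitochondrial carrier, gave 0.29 and -0.43. Erc2, a protein of the presynaptic active zone, fell on its dimmer probe (-0.67 ± 0.08, adjusted p = 0.0192), while its brighter probe gave -0.09 ± 0.08 (adjusted p = 0.589). For such genes the call holds for a probe and not for all transcripts of the gene.

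Of the single probes, the largest rise was that of Pdgfra, the receptor for platelet-derived growth factor on oligodendrocyte precursors. Its signal was 622 against 211 on CAT-SKL 1 and 344 against 195 on CAT-SKL 2, a log2 change of 1.56 and 0.82 (mean 1.19 ± 0.21, SE, n = 2, adjusted p = 0.0395). The vehicle level was about the same on both arrays, and the treated level was clearly higher on CAT-SKL 1. Cort, which encodes cortistatin, an interneuron peptide related to somatostatin, changed by 1.23 and 0.85 (mean 1.04 ± 0.12, adjusted p = 0.0192). Further among the 12 largest rises were Cyba, the p22phox subunit of NADPH oxidases (0.95 ± 0.14), and Scrg1 (0.94 ± 0.18), which stands in the list of oligodendrocyte lineage markers. They also held Gramd2b (0.85 ± 0.16), the cilium gene Cfap52 (0.78 ± 0.14) and the sphingosine-1-phosphate receptor S1pr1 (0.75 ± 0.12). The cell cycle inhibitor Cdkn1c, at 1.11 and 0.35 (0.73 ± 0.15, adjusted p = 0.0477), had arrays that differed by as much as its mean change.

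Of the falling single probes, H1f4, a linker histone that binds DNA between nucleosomes, changed by -0.76 and -0.64 (mean -0.70 ± 0.07, SE, n = 2, adjusted p = 0.0192). Unc13a, which primes synaptic vesicles for release, changed by -0.78 and -0.48 (mean -0.63 ± 0.09, adjusted p = 0.031). Foxe1 (-0.66 ± 0.12), Tmem178b (-0.62 ± 0.09), the actin regulator Wasl (-0.61 ± 0.11) and the kinase gene Slk (-0.61 ± 0.11) were also among the 12 largest falls. Another probe of Tmem178b gave -0.31 and 0.26. None of these falls reached 2-fold: the largest among genes with a symbol was the 1.64-fold fall of Chd2.

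**Figure D3:**
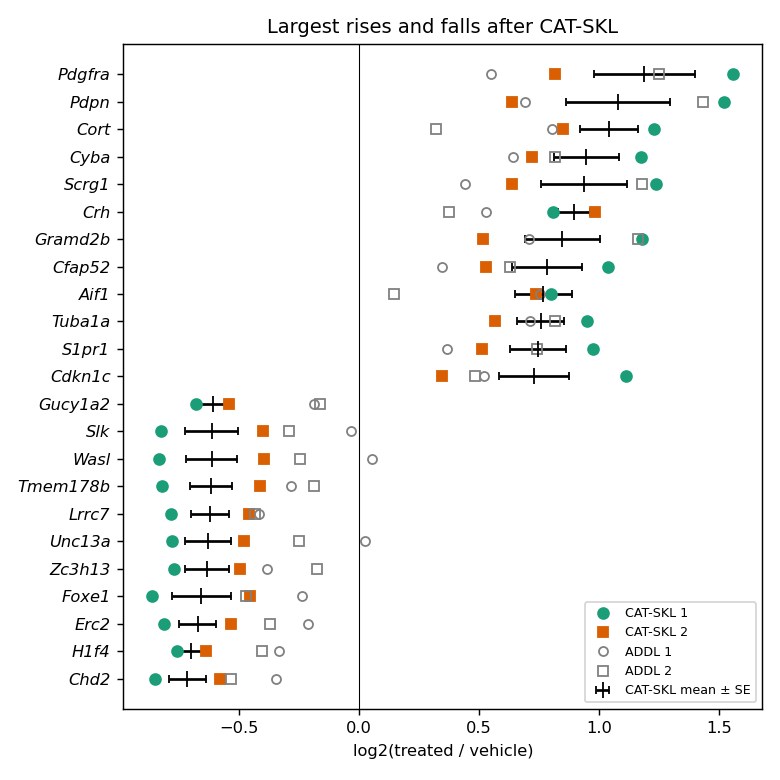
Log2 change over vehicle (x axis) of the 12 largest rises and 11 of the 12 largest falls among passing probes with a gene symbol, 1 probe a gene, with CAT-SKL 1 and 2 filled, the 2 ADDL arrays open and the CAT-SKL mean ± SE as bars. CAT-SKL 1 lies farther from 0 than CAT-SKL 2 for every gene shown but Crh, and an open marker often lies between or beside the filled ones among the rises.

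Gene groups are described by the brightest tested probe of each gene. By that rule 249 of 12889 genes with a symbol passed (1.93%), 106 higher (0.822%) and 143 lower (1.11%), and the median change over all of them was 0.004. Of these 12889 genes, 4444 lay above 0 on both arrays and 4091 below 0 on both, the background for such counts in the lists below. Among 26 tested genes of GABAergic neurons, the inhibitory interneurons of these regions, 5 rose (19.2%) and 0 fell, and 19 lay above 0 on both arrays. The median change was 0.22 (0.21 on CAT-SKL 1 and 0.14 on CAT-SKL 2). The genes that rose were Npy, Cort, Slc32a1, Calb1 and Gad1. In bulk RNA, more cells of a type and more RNA per cell cannot be told apart.

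Slc32a1, the transporter that loads GABA into synaptic vesicles, gave 1.01 and 0.45 (mean 0.73 ± 0.11, SE, n = 2, adjusted p = 0.0333), and Gad1, the enzyme that makes GABA, gave 0.81 and 0.30 (mean 0.56 ± 0.10, adjusted p = 0.0433). A dim second probe of Gad1 gave 0.11 ± 0.07 (adjusted p = 0.428). Calb1, the calcium buffer calbindin, was one of the genes higher on CAT-SKL 2, at 0.28 and 0.62 (mean 0.45 ± 0.08, adjusted p = 0.0425). The interneuron markers Sst, Vip and Pvalb had values near 0, with 0.14 ± 0.07, 0.08 ± 0.06 and 0.03 ± 0.05. Gad2, the second GABA-synthesising enzyme, had 0.11 ± 0.07. Of 11 tested glutamatergic genes, 1 fell, the transcription factor Neurod2, at -0.36 and -0.33 (mean -0.34 ± 0.06, adjusted p = 0.0378). The vesicular glutamate transporter genes Slc17a7 and Slc17a6 had 0.04 ± 0.07 and 0.25 ± 0.06 and did not pass. The glutamatergic median was 0.037.

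Among 25 tested neuropeptide genes, 4 rose and 0 fell: Crh, Npy, Cort and Cartpt. Cartpt, the precursor of the CART peptides, gave 0.30 and 0.43 (mean 0.36 ± 0.07, SE, n = 2, adjusted p = 0.0444). The arrays disagreed over the list as a whole, whose median over all 25 genes was -0.013 on CAT-SKL 1 and 0.24 on CAT-SKL 2. The enkephalin precursor gene Penk gave 0.09 and 1.09, the dynorphin precursor gene Pdyn -0.28 and 0.50, and the galanin gene Gal -0.79 and 0.17. Of the 3, none passed.

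The medians of glial markers lay above 0, and farther so on CAT-SKL 1. For 22 tested astrocyte markers the median was 0.69 on CAT-SKL 1 and 0.17 on CAT-SKL 2, and 17 lay above 0 on both arrays, but 0 passed. The summed signal of these markers was 59032 against 23749 in vehicle on CAT-SKL 1 and 29294 against 22735 on CAT-SKL 2. Apoe, the lipid carrier of astrocytes, gave 1.92 and 0.70 (mean 1.31 ± 0.28, SE, n = 2, adjusted p = 0.0527). Fabp7, a fatty acid binding protein of radial glia, gave 1.69 and 0.65 (adjusted p = 0.0528), and S100b had a mean of 1.06 ± 0.23 (adjusted p = 0.0528). Apoe, Fabp7 and S100b were also among the 5 named probes whose CAT-SKL arrays lay farthest apart. Gfap, the filament protein of mature astrocytes, gave 0.56 and -0.02. No astrocyte marker on CAT-SKL 2 exceeded Apoe at 0.70.

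Of 16 tested markers of the oligodendrocyte lineage, 4 rose (25%) and 0 fell. Besides Pdgfra and Scrg1, these were the transcription factors Olig2, at 0.65 and 0.34 (mean 0.50 ± 0.09, SE, n = 2, adjusted p = 0.0388), and Sox10, at 0.82 and 0.32 (mean 0.57 ± 0.11, adjusted p = 0.0421). A dim second probe of Olig2 gave 0.01 ± 0.06. The precursor genes Olig1 and Cspg4 had 0.75 ± 0.16 and 0.69 ± 0.16 and did not pass. Myelin genes gave no such value, with 0.03 ± 0.07 for Mog, and Mbp split the arrays at 0.70 and -0.78. The summed signal of the list was 9995 against 5485 in vehicle on CAT-SKL 1 and 5397 against 4939 on CAT-SKL 2.

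Of 18 tested microglia markers 1 rose, Fcer1g, an Fc receptor chain, at 0.62 and 0.51 (mean 0.57 ± 0.07, SE, n = 2, adjusted p = 0.023). Aif1, the microglial calcium-binding protein Iba1, rose on one probe, at 0.80 and 0.74 (mean 0.77 ± 0.12, adjusted p = 0.0333), and its brighter probe gave 0.41 and 0.32 (mean 0.37 ± 0.08, adjusted p = 0.0547). The median of the list was 0.14 on CAT-SKL 1 and 0.078 on CAT-SKL 2, with 10 of the 18 above 0 on both arrays and 3 below. Laptm5 had 0.22 ± 0.07 and Tlr2 0.19 ± 0.06, while Csf1r had 0.02 ± 0.09, P2ry12 -0.06 ± 0.05 and C1qa -0.03 ± 0.07, and none of these passed. The summed microglial signal was 6131 against 5297 in vehicle on CAT-SKL 1 and 5404 against 5221 on CAT-SKL 2. Of 16 markers of meninges, fibroblasts and vessels 0 passed, with a median of 0.027. The part of these other cell types in the changes of neuronal genes was not tested. Among the neuronal genes that rose, Npy, Cort, Slc32a1 and Gad1 were higher on CAT-SKL 1, the array with the higher glial signals, and Crh, Calb1 and Cartpt on CAT-SKL 2.

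The medians of cell cycle, progenitor and tubulin genes were likewise higher on CAT-SKL 1. Of 30 tested cell cycle genes, 2 rose, cyclin D1 (Ccnd1, 0.35 ± 0.06, adjusted p = 0.0398) and survivin (Birc5, 0.37 ± 0.07, adjusted p = 0.0421), and 25 lay above 0 on both arrays. The median of this list was 0.31 on CAT-SKL 1 and 0.13 on CAT-SKL 2. Of 16 neural progenitor genes 1 rose, Pdpn, and the medians were 0.45 and 0.09. Among 14 alpha and beta tubulin genes, the building blocks of microtubules, 3 rose, Tuba1a, Tubb2a (0.49 ± 0.08, adjusted p = 0.0353) and Tubb4b (0.39 ± 0.07, adjusted p = 0.0361). Tuba1a gave 0.95 and 0.57 (mean 0.76 ± 0.10, adjusted p = 0.0233), and the neuron-specific Tubb3 gave 0.03 ± 0.09. Tubulin genes are closely alike, so their probes may share signal.

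Of 30 tested presynaptic genes, 3 fell and 1 rose (13.3%). The complexin gene Cplx2, whose protein clamps vesicle fusion, gave -0.46 and -0.35 (mean -0.41 ± 0.07, SE, n = 2, adjusted p = 0.038) and fell, as did Unc13a. The presynaptic median was -0.15 on CAT-SKL 1 and -0.031 on CAT-SKL 2. Of 30 postsynaptic genes, Lrrc7 fell and the AMPA receptor subunit gene Gria3 rose (0.41 and 0.33, mean 0.37 ± 0.06, adjusted p = 0.0333). Of 29 immediate early genes, which neuronal activity switches on within minutes, 0 passed, and their medians had opposite signs on the arrays, -0.29 and 0.053. Jun was the nearest to passing (-0.61 and -0.24, adjusted p = 0.0552), while Fos gave 0.20 and 0.28.

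No gene for the removal of peroxide, the reaction that CAT-SKL carries out, passed. Cat, which encodes catalase, had a signal of 202 against 226 in vehicle on CAT-SKL 1 and 198 against 222 on CAT-SKL 2. The log2 change was -0.16 on both arrays (mean -0.16 ± 0.09, SE, n = 2, adjusted p = 0.389). Of 23 tested genes for removal of peroxide and superoxide, 0 passed, with a range from -0.17 (Gsr, glutathione reductase) to 0.22 (Sod2, the mitochondrial superoxide dismutase) and a median of 0.059. Sod2 gave 0.21 and 0.23 (adjusted p = 0.0847), and the glutaredoxin gene Glrx 0.19 and 0.18 (adjusted p = 0.0967). The glutathione peroxidase gene Gpx4 gave -0.06 and -0.02, and the peroxiredoxin genes Prdx1 to Prdx6 had means between -0.01 (Prdx5) and 0.15 (Prdx2). Across 24 NRF2 target genes 0 passed by the brightest probe, with 0.68 and 0.27 for haem oxygenase (Hmox1, adjusted p = 0.0596). A second probe of Fth1, the ferritin heavy chain, rose (0.39 and 0.31, mean 0.35 ± 0.06, adjusted p = 0.0362), while its brightest probe gave 0.21 ± 0.05 (adjusted p = 0.0757).

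Of 36 tested peroxisome genes 1 rose, Pex13, a membrane protein of the import machinery that takes in proteins with such a targeting signal (0.38 and 0.24, mean 0.31 ± 0.06, SE, n = 2, adjusted p = 0.0454). The median of the list was -0.001, with 12 genes above 0 on both arrays and 12 below. Of 10 tested NADPH oxidase genes, whose products make superoxide, 2 rose. Cyba gave 1.18 and 0.72, and Rac2, a small GTPase of the blood-cell oxidase complex, gave 0.69 and 0.71 (mean 0.70 ± 0.08, adjusted p = 0.0192). Of the catalytic and regulatory partners, Ncf1 had 0.17 ± 0.06 and Noxa1 had 0.09 ± 0.05. Cybb, the catalytic subunit of phagocytes, was not well above background in vehicle on either array and gave 0.03 ± 0.06.

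Of 25 tested genes of cholesterol synthesis and uptake, 3 fell and 0 rose, and 18 lay below 0 on both arrays. The falls included the sterol demethylase gene Cyp51 (-0.43 and -0.34, mean -0.38 ± 0.07, SE, n = 2, adjusted p = 0.04) and Hsd17b7 (-0.42 and -0.36, mean -0.39 ± 0.08, adjusted p = 0.0454). Both arrays were about equally low for these genes. The median of the list was -0.14, but 0.006 when the arrays were median-centred without loess. Hmgcs1, an early enzyme of the pathway, gave 0.00 ± 0.07.

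Of the other lists, the interferon response held 1 rise and 1 fall among 19 genes. Isg20, an exonuclease, fell by similar amounts on both arrays (-0.49 and -0.56, mean -0.52 ± 0.06, SE, n = 2, adjusted p = 0.0192), and B2m, the light chain of MHC class I, rose (0.41 ± 0.07, adjusted p = 0.0353). Of 17 inflammation genes the chemokine gene Ccl3 alone rose (0.66 and 0.32, mean 0.49 ± 0.10, adjusted p = 0.0468). Of 25 genes of the unfolded protein and integrated stress responses, Creb3l2 rose (0.30 ± 0.05) and Trib3 fell (-0.28 ± 0.05). Among 18 heat shock chaperone genes Hspa8 rose on its brightest probe (0.38 ± 0.05, adjusted p = 0.0286), and its 3 other probes gave -0.12, -0.07 and 0.01. Of 10 linker histone and chromatin remodeller genes tested, H1f4 and Chd2 fell. None of 23 p53 target and apoptosis genes, 40 cytosolic ribosomal protein genes or 38 respiratory chain genes passed, with medians of -0.062, 0.00035 and 0.0052. With median-centred arrays these medians were 0.015, 0.26 and 0.20, and those of the peroxide and NRF2 lists were 0.21 and 0.27, against 0.059 and 0.086 with loess.

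**Figure D4:**
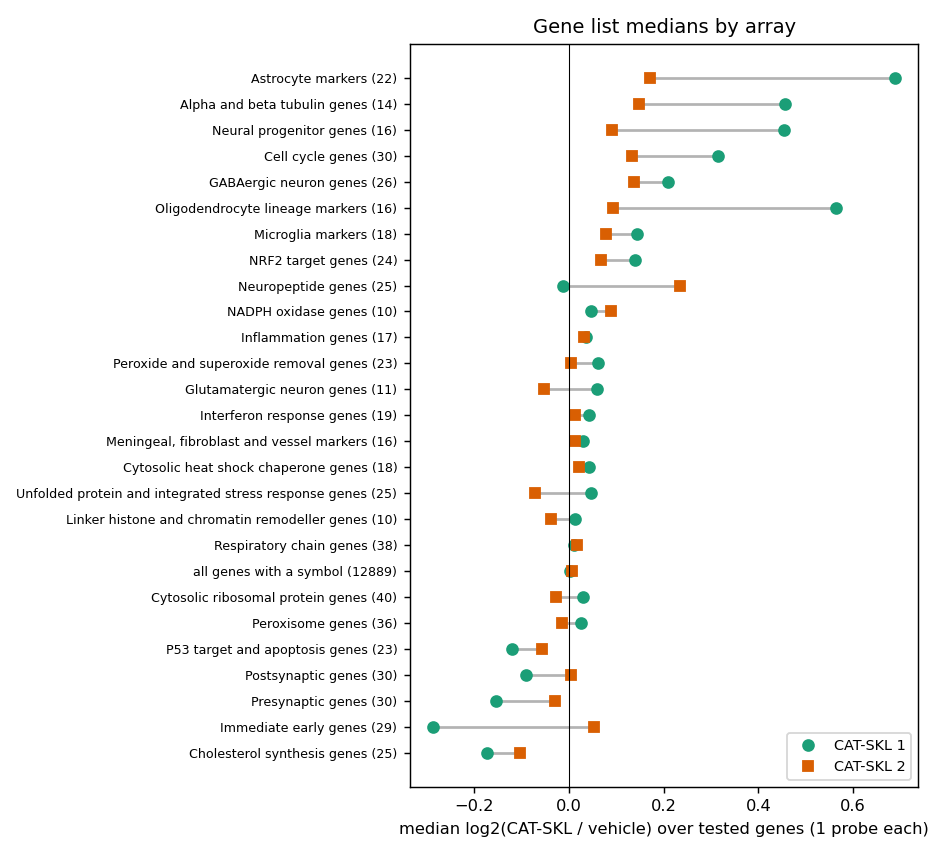
Median log2 change of CAT-SKL over vehicle (x axis) on CAT-SKL 1 (circles) and CAT-SKL 2 (squares) for each gene list and for all 12889 genes, with the number of tested genes in brackets. Astrocyte, oligodendrocyte and progenitor lists lie far to the right on CAT-SKL 1 and near 0.1 to 0.2 on CAT-SKL 2, and the immediate early and neuropeptide lists have opposite signs on the arrays.

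CAT-SKL was set against ADDL to ask where the antioxidant protein differs from the oligomers, given for the same time, with the dye effect of a probe removed by the difference. Of 25226 probes 0 passed in limma (0%), while 2162 had an unadjusted p below 0.05, and the lowest adjusted p was 0.55. Against the mean of the other 3 treatments 0 passed as well (0%), with 1001 at an unadjusted p below 0.05 and a lowest adjusted p of 0.998. So none of the changes above is shown to be particular to CAT-SKL. Of the other treatments, CAT-SKL+ADDL and ADDL+CAT-SKL also contain CAT-SKL. Duration and position on the slide go with these sequential treatments and cannot be told apart from them. The labels give vehicle as the second channel of every array and do not say whether its RNA was 1 pool. Whether the ratios of both treatments share a control sample is therefore unknown, and their values are only given side by side.

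Crh gave 0.53 and 0.38 on the ADDL arrays for the probe with 0.81 and 0.99 on the CAT-SKL arrays. The difference was 0.45 ± 0.09 (SE, limma adjusted p = 0.55), with 0.37 ± 0.10 for the other probe. Npy gave 0.36 and 0.52 on its brighter probe against 0.89 and 0.56 (difference 0.28 ± 0.12), and its other probe differed by 0.48 ± 0.12. Hip1 differed by 0.37 ± 0.11 and 0.17 ± 0.09 on its probes. Gucy1a2 gave -0.19 and -0.16 against -0.68 and -0.54 (difference -0.44 ± 0.09), and its brighter probe differed by -0.23 ± 0.09. Lpgat1 gave -0.14 and -0.18 against -0.71 and -0.37 (difference -0.38 ± 0.11), and its other probe differed by -0.32 ± 0.10. The differences of Chd2 were -0.28 ± 0.11, -0.24 ± 0.10 and -0.34 ± 0.12, and those of Lrrc7 were -0.20 ± 0.11 and -0.10 ± 0.11. Kcnma1 differed by -0.24 ± 0.08, -0.16 ± 0.10 and 0.02 ± 0.11. Unc13a gave 0.03 and -0.25 against -0.78 and -0.48 (difference -0.52 ± 0.13). Calb1 had opposite signs under the agents, with -0.31 and -0.12 on the ADDL arrays (difference 0.66 ± 0.12). Tuba1a gave 0.71 and 0.82 on the ADDL arrays (difference -0.01 ± 0.14), and Gria3 gave 0.43 and 0.29 (difference 0.01 ± 0.08). Apoe gave 0.95 and 1.76 on the ADDL arrays against 1.92 and 0.70 (difference -0.05 ± 0.39). Its ADDL arrays also lay apart, but less so than its CAT-SKL arrays.

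The number of calls depended strongly on the processing. Of the 65 named probes that passed, 0 changed sign in an alternative that tested it. Most alternatives leave the CAT-SKL ratios as they are, and passing probes had one sign on both arrays, so leaving out 1 array cannot turn them. Only a change of background correction or normalisation could have turned a sign. Gal, Pdyn and Mbp, which did not pass, had opposite signs on the arrays and so turn with the array left out. With median-centred arrays and no loess, 1825 probes passed, of which 1405 rose and 420 fell, against 174 and 398 with loess. With the log ratios of the scanner software, or with no offset added to the signals, 0 passed in limma, while 4648 and 4273 probes had an unadjusted p below 0.05. Without CAT-SKL 1 only 2 probes passed and none of the 8 genes was called, and without CAT-SKL 2 516 probes passed. The alternatives are not all distinct. Leaving out either CAT-SKL+ADDL array repeats the reported calls against vehicle, and the calls without either ADDL array are the same. Leaving out either ADDL+CAT-SKL array repeats those of the CAT-SKL and ADDL arrays alone. Of the 8 genes with several agreeing probes, Crh was called in 15 of 18 alternatives, Chd2 and Npy in 14, Gucy1a2 and Lrrc7 in 8, Hip1 and Kcnma1 in 6 and Lpgat1 in 5. The mean change of the Crh probe with the larger change ranged from 0.81 to 1.18 over them, that of the brighter Npy probe from 0.56 to 0.89, and that of the largest Chd2 probe from -0.85 to -0.58. With no offset Crh reached 1.15 and Gucy1a2 -0.85, against 0.90 and -0.61, since the offset shrinks the change of dim probes.

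**Figure D5:**
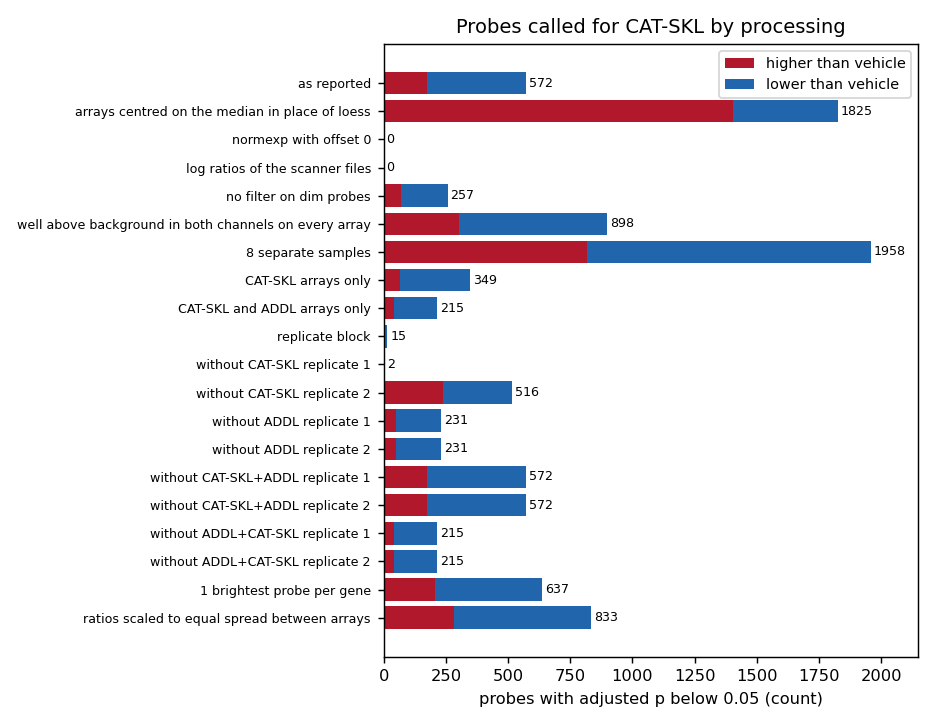
Probes with an adjusted p below 0.05 for CAT-SKL against vehicle (x axis, count), split into higher (red) and lower (blue), as reported and under each alternative processing (y axis). The count is 572 as reported and ranges from 0, with no offset or with the scanner log ratios, to 1958 when all 8 arrays count as separate samples.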

How the data were processed

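RNA of 8 samples was hybridised to 2-colour Agilent arrays of 1 slide. The deposited scanner files give, for every spot, the median intensity and the median local background of each channel, per the file headers. They also give a log10 ratio of Cy5 over Cy3, already background-subtracted and dye-normalised with Agilent Feature Extraction 11.5, as the submitters' processing notes name it. Flags of 0 or 1 mark outlier, saturated and dim spots, per the file headers. Log10 ratios of the deposited value table differed from these by at most 0.005 over 62976 spots, so only those of the scanner files were used.

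In limma 3.58.1 (R 4.3.3), intensities were corrected by normexp with an offset of 50 and normalised by loess on each array, with control spots given weight 0. Outlier spots (964 and 1006 on the CAT-SKL arrays) were removed and spots of a probe averaged. The test used probes with a signal well above background in Cy5 or Cy3 on 2 or more arrays (25293, less 67 with missing values). Symbols came from matching accessions to the RefSeq table of GRCr8 (17998 of 30367 probes). The array was designed on another build, whose coordinates are not given.

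All 4 groups entered 1 fit (lmFit, eBayes, two-sided) that shares the spread, with residual degrees of freedom of 3 and a prior of 5.19. The CAT-SKL+ADDL arrays differed by no more than spot noise (r of their differences between first and second spots 0.00751, limit 0.1) and counted as 1 sample, leaving 7. The labels call the replicates biological, and p-values measure only the spread between these samples. Replicate numbers did not pair the samples (r of deviations -0.191 to 0.0678). Genes were named by a rule: the 12 largest rises and falls, genes with several agreeing probes, up to 4 members of each list with the smallest p, all peroxide genes, and the largest disagreements of probes or arrays. A few of these genes are not reported here. Other list members are named as background markers. The genes and lists were chosen with earlier results of these data known. Alternatives covered background, normalisation, filter, samples and replicates.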

Additional observations from a re-analysis of the deposited data

How the results depend on the processing

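Across the alternatives that were run, the number of calls moved. The passing probes kept their sign, which only a change of background correction or normalisation could have turned. Of 572 probes and 8 genes with several agreeing probes as reported, median centring gave 1825 and 48, and normexp with offset 0 and the scanner log ratios gave 0 and 0. No filter on dim probes gave 257 and 5, a filter on both channels of every array 898 and 13, and 8 separate samples 1958 and 27. The CAT-SKL arrays alone gave 349 and 3, and the CAT-SKL and ADDL arrays alone 215 and 3. The replicate block gave 15 probes and 1 gene, Crh, but the replicate numbers do not pair the samples. Leaving out 1 array gave between 2 and 572 probes and between 0 and 15 genes. It gave 2 and 0 without CAT-SKL 1, 231 and 3 without either ADDL array, and 215 and 3 without either ADDL+CAT-SKL array. Where arrays were left out, a lone sample was assumed to vary like the other groups. For CAT-SKL against ADDL, leaving out 1 array gave between 0 and 11 probes, with 11 without CAT-SKL 1 and 2 without the second ADDL array. Against the other 3 treatments it gave between 0 and 2, with 2 without CAT-SKL 1. The remaining alternatives gave 0 in both comparisons. Of 65 named passing probes, 0 passed with offset 0, with the scanner log ratios or without CAT-SKL 1, and 4 with the replicate block. The cause of these differences was not tested. Dim probes limit the precision, since their ratios are shrunk by the offset and noisy without it.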
